A study of Mus musculus with 6 samples.

Results

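The 72 genes described here encode chromatin remodellers and histone-modifying or DNA-modifying enzymes, together with the Cbx readers of histone methylation. They were taken by symbol from the platform's probe table. The families are Smarc (13 genes), Chd (9), Hdac (11), Kdm (15), Kat (8), Dnmt (4), Tet (3), Ezh (2) and Cbx (7), and the 3 demethylase genes Kdm5c, Kdm5d and Kdm6a of the sex chromosomes were left out by the rule. They are 72 of the 18193 genes measured on the array, each represented by its probe set (a group of probes for 1 transcript) with the highest mean over the 6 arrays.

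Chromatin remodellers use ATP to slide, eject or exchange nucleosomes, and the histone enzymes add or remove acetyl and methyl groups that are read by proteins such as the Cbx family. Polycomb proteins keep developmental genes silent and trithorax proteins keep them active, and Hox genes are the classical targets of both. In the developing nervous system the subunits of the BAF remodelling complex are exchanged as progenitors become neurons.

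The arrays measured green fluorescent cells sorted from mouse hindbrains at E10.5, pooled by litter. The swap group (n = 3 arrays) made another Hox protein from the Hoxb1 locus, followed by IRES-tauGFP. In the control group (n = 3 arrays) the locus kept its own product, Hox-B1, also with IRES-tauGFP, so both genotypes carry the reporter and the sort takes cells in which the locus is active. The labels give rhombomere 4 as the tissue, the replicates are independent and biological per the series design, and the comparison asks what changes when the Hox protein made by these cells is replaced. Values are log2 intensities, on which a difference of 1 is a 2-fold change, and differences are swap minus control.

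The sorted cells carried 7 measured genes of the facial motor neuron marker list in both genotypes. Isl1, a motor neuron factor, stood at 14.03, 13.75 and 13.74 in swap arrays 1, 2 and 3, against 13.63, 13.73 and 13.77 in the control arrays. Hoxb1 itself was read at 12.54, 12.06 and 11.78 in the swap arrays, against 12.67, 12.68 and 12.55 in the control arrays (limma adjusted p = 1.00). Where its probes lie relative to the replaced sequence is not known here, so this does not check the labels. The neural progenitor list was also bright, summing to 45579 to 46056 intensity units in swap arrays and 45377 to 47261 in control arrays. The facial motor neuron list summed to 44421 to 57793 units in swap arrays and 45082 to 49699 in control arrays. Sums of some lists of other cells varied widely. The macrophage list lay between 2354 and 4463 units in swap arrays and between 472 and 17066 in control arrays. The mesenchyme list summed to 3998 to 6583 units in swap arrays and 3062 to 9163 in control arrays. The median intensity of an array was 118 to 139 units, and how precise a value can be is limited by having 3 arrays a genotype. Swap array 1 and control array 1 stood apart from the other 4 arrays in many genes, as described for the members below. In sorted bulk samples, fewer cells of a type and less RNA per cell cannot be told apart.

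The members showed no shift in one direction. The median difference was 0.00, beside 0.01 over all 18193 genes, and 37 genes had a positive and 35 a negative difference. limma called 0 of 72 members at an adjusted p under 0.05 (0% of 45037 probe sets were called), and its adjusted p was 1.00 for each of them. At an unadjusted p under 0.05 there were also 0 members, where 3.63% of all genes and 4.57% of all probe sets passed. Among genes no dimmer than the median of all probe sets, 141 of 11168 passed. The smallest unadjusted limma p of a member was 0.115.

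What the arrays could bound is given by the 95% intervals of the same fit. The interval lay within 2-fold in either direction for 53 of 72 members (73.6%), against 43.4% of all genes and 68.1% of genes no dimmer than the median of all probe sets (log2 6.83, 114 units). Of the members 67 (93.1%) lay at or above that level, against 61.4% of all genes, so these genes were mostly measured in the range where the arrays were precise. The absolute difference was under 0.25 for 54 members and over 0.5 for 5. Those 5 were Smarcd1, Hdac10, Kdm4d, Dnmt3l and Cbx7, named here after their values were seen, and each had an SE of 0.51 or more.

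**Figure D1:**
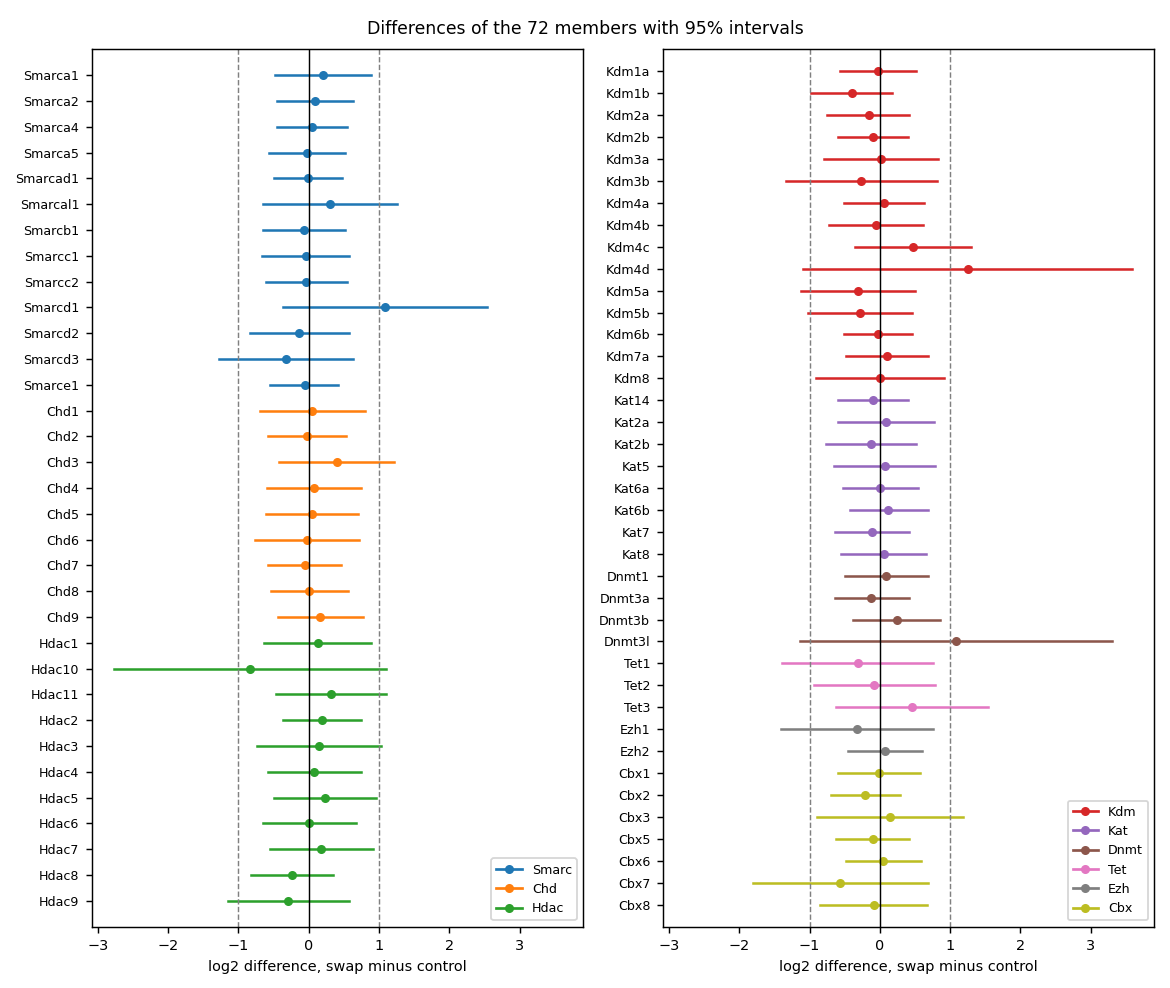
Log2 difference (swap minus control) of each of the 72 members on the x axis, points being limma estimates and lines 95% intervals, coloured by family, with dashed lines at 2-fold. Every interval crosses 0, and 53 of 72 stay between the dashed lines.

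**Figure D2:**
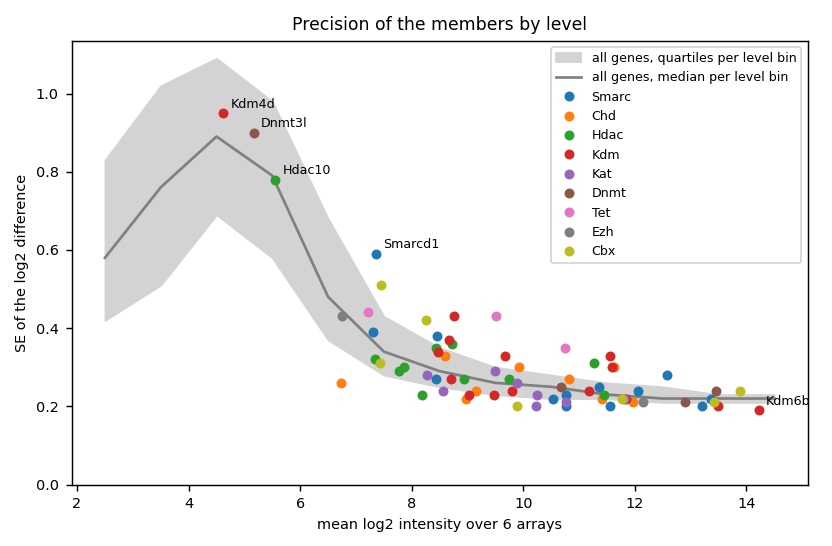
SE of the log2 difference (y axis) against the mean log2 intensity over 6 arrays (x axis) for the 72 members, with the quartiles of all genes per bin of 1 log2 unit in grey. Kdm4d, Dnmt3l and Hdac10 lie at low levels with SEs of 0.95, 0.90 and 0.78, and most members lie where the median SE of all genes is 0.34 or less.

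Smarca4 (BRG1) and Smarca2 (BRM), the alternative ATPases of the BAF complex, were chosen for their role after their values were seen. Smarca4 stood at 10.78, 10.82 and 10.73 in the swap arrays, against 10.64, 10.78 and 10.79 in the control arrays. Smarca2 stood at 10.74, 10.48 and 10.52 in the swap arrays, against 10.66, 10.43 and 10.38 in the control arrays. The groups overlap for both genes, the differences being 0.04 (95% interval -0.45 to 0.54) for Smarca4 and 0.09 (-0.45 to 0.63) for Smarca2. Smarcad1 differed by -0.01 (95% interval -0.50 to 0.48). Wider intervals were found for Smarca1 at 0.20 (95% interval -0.48 to 0.88) and Smarcal1 at 0.30 (-0.65 to 1.25). The 2 dimmer probe sets of Smarcal1 differed by -0.34 and -1.17. Smarca5, the ISWI-type ATPase SNF2H, averaged 13.35 ± 0.22 in the swap arrays and 13.38 ± 0.03 in the control arrays (SD, n = 3 each).

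Among the BAF subunits, Smarce1, an HMG-box protein, had one of the smallest ranges of any member. It stood at 13.13, 13.19 and 13.23 in the swap arrays, against 13.27, 13.25 and 13.21 in the control arrays, a range of 0.14 over all 6. Smarcd1, a BAF60 subunit, was the opposite case, with 7.98, 7.88 and 7.86 in the swap arrays and 7.97, 5.68 and 6.81 in the control arrays. Its swap arrays were close together and control array 1 lay with them, while control arrays 2 and 3 were lower. The difference was 1.09 (SE 0.59, 95% interval -0.36 to 2.54, limma adjusted p = 1.00), and it was 0.52 without control array 2 and 1.66 without control array 1. A second Smarcd1 probe set, below the median level, differed by 1.31 (limma adjusted p = 1.00), with groups that overlap. Smarcd3, another BAF60 subunit, differed by -0.33 (SE 0.39), with swap array 1 at 6.41 and the other 5 arrays between 7.28 and 7.78, and without swap array 1 the difference was 0.04. Of the 13 Smarc genes 5 had positive and 8 negative differences, with a median of -0.03, and 10 had an interval within 2-fold.

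The Chd proteins are remodelling ATPases with chromodomains, and 8 of the 9 had an interval within 2-fold, with a family median of 0.04. Chd7, the gene mutated in CHARGE syndrome, stood at 11.89, 12.06 and 11.87 in the swap arrays, against 12.16, 11.92 and 11.91 in the control arrays. The groups overlap, and the difference was -0.06 (95% interval -0.58 to 0.46). Chd3, a NuRD ATPase, had the smallest p of the family, at 9.32, 8.21 and 8.87 in the swap arrays and 8.50, 8.35 and 8.36 in the control arrays. Swap array 1 was the highest and swap array 2 the lowest of the 6, and the difference was 0.40 (SE 0.33). Chd9 differed by 0.16 (SE 0.24). Chd1, which binds trimethylated histone H3 lysine 4, differed by 0.05 (SE 0.30), while 1 of its 3 other probe sets, close to the median level, differed by 0.91 (limma adjusted p = 1.00).

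Lysine acetyltransferases differed by -0.12 to 0.12 by their brightest probe sets, and 8 of 8 had an interval within 2-fold. With the mean of all probe sets of a gene the spread was wider, at -0.31 for Kat6a, 0.46 for Kat6b and -0.45 for Kat7. Kat6a (MOZ), known in mouse and zebrafish for maintaining Hox expression, stood at 12.01, 11.79 and 11.63 in the swap arrays, against 11.80, 11.76 and 11.86 in the control arrays. The difference was 0.00 (95% interval -0.53 to 0.54). Its paralog Kat6b differed by 0.12 (SE 0.23) and Kat7 (HBO1), which acetylates histone H3 and H4, by -0.11 (SE 0.21). One further Kat6b probe set, at a very low level, had 3.21, 3.12 and 3.05 in the swap arrays and 1.70, 2.46 and 2.28 in the control arrays. Those groups do not overlap, and the difference was 0.98 (limma adjusted p = 0.962).

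Among the deacetylases, 8 differences were positive and 3 negative, and their median was 0.13, or -0.01 with the mean of all probe sets of a gene. Hdac1 and Hdac2 are the paired catalytic subunits of the Sin3, NuRD and CoREST corepressors. Hdac1 stood at 11.70, 11.26 and 11.06 in the swap arrays, against 11.43, 11.42 and 10.79 in the control arrays, and Hdac2 at 11.67, 11.63 and 11.32 against 11.33, 11.22 and 11.51. The groups overlap for both, with differences of 0.13 (95% interval -0.63 to 0.88) for Hdac1 and 0.19 (-0.37 to 0.75) for Hdac2. Hdac8 differed by -0.24 (SE 0.23). Hdac10, below the median level, ranged from 4.17 to 5.93 in the swap arrays and from 4.64 to 7.24 in the control arrays, a difference of -0.83 (SE 0.78). The 3 probe sets of Hdac4, a class IIa deacetylase, differed by 0.08, -1.30 and -0.42 from the brightest to the dimmest, the middle one with a 95% interval of -2.60 to 0.01.

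Histone demethylases had 6 members higher and 9 lower and a median of -0.03. Kdm1b (LSD2), a flavin-dependent demethylase of histone H3 lysine 4, was 1 of the 2 members whose groups did not overlap in the brightest probe set. It stood at 9.10, 8.67 and 8.73 in the swap arrays, against 9.36, 9.22 and 9.13 in the control arrays. The highest swap array fell short of the lowest control array, by less than the SD of either group (0.23 in the swap and 0.12 in the control arrays). The difference was -0.40 (SE 0.23, 95% interval -0.98 to 0.17, limma adjusted p = 1.00). Such a separation in either direction was found in 2 of 72 members (2.78%), against 8.85% of all genes. That 8.85% was made up of 4.55% with the swap arrays lower and 4.3% with them higher. Among genes at or above the median level the share was 8.19%.

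The promoter of Kdm1b is shown because its arrays separated and as an example of a member promoter with 26 CG dinucleotides and 6 GC boxes. The window runs from 250 bases before to 50 after the annotated start (RefSeq, GRCm38.p6, chr13:47043249-47043548, plus strand), and capitals mark GGGCGG on either strand.
Kdm1b: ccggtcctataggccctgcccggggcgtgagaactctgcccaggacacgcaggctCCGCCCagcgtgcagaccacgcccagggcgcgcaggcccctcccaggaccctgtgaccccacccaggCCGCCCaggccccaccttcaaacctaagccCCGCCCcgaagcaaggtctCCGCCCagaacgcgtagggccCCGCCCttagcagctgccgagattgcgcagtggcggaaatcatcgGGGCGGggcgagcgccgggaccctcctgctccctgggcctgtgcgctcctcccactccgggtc

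Kdm6b (JMJD3), which removes methyl groups from histone H3 lysine 27 and so opposes Polycomb, was the steadiest member. It stood at 14.23, 14.20 and 14.21 in the swap arrays and at 14.25, 14.22 and 14.23 in the control arrays, a range of 0.06. That probe set carries the platform suffix _x_at, given to sets with probes that also match other sequences. The 2 further Kdm6b probe sets read far lower, the brighter of them at 7.22, 6.34 and 7.58 in the swap arrays and 7.29, 6.26 and 7.80 in the control arrays. With that probe set the difference was -0.07, against -0.02 with the first, and under quantile normalization or median centring the first gave 0.01. The level read for Kdm6b thus depends on the probe set. All 3 sets were lower in the swap arrays, the dimmest by -0.21 (SE 1.03). Each difference was smaller than its SE, and that of the brightest set has no settled sign across normalizations.

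Kdm2b, a CxxC-domain demethylase that recruits variant Polycomb complexes to CpG islands, averaged 13.45 ± 0.05 in the swap arrays and 13.55 ± 0.07 in the control arrays (SD, n = 3 each), a difference of -0.10. Kdm4c, a demethylase of histone H3 lysine 9, differed by 0.47 (SE 0.34). Control array 1 was its lowest value, at 7.62, and the difference was 0.15 without that array.

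**Figure D3:**
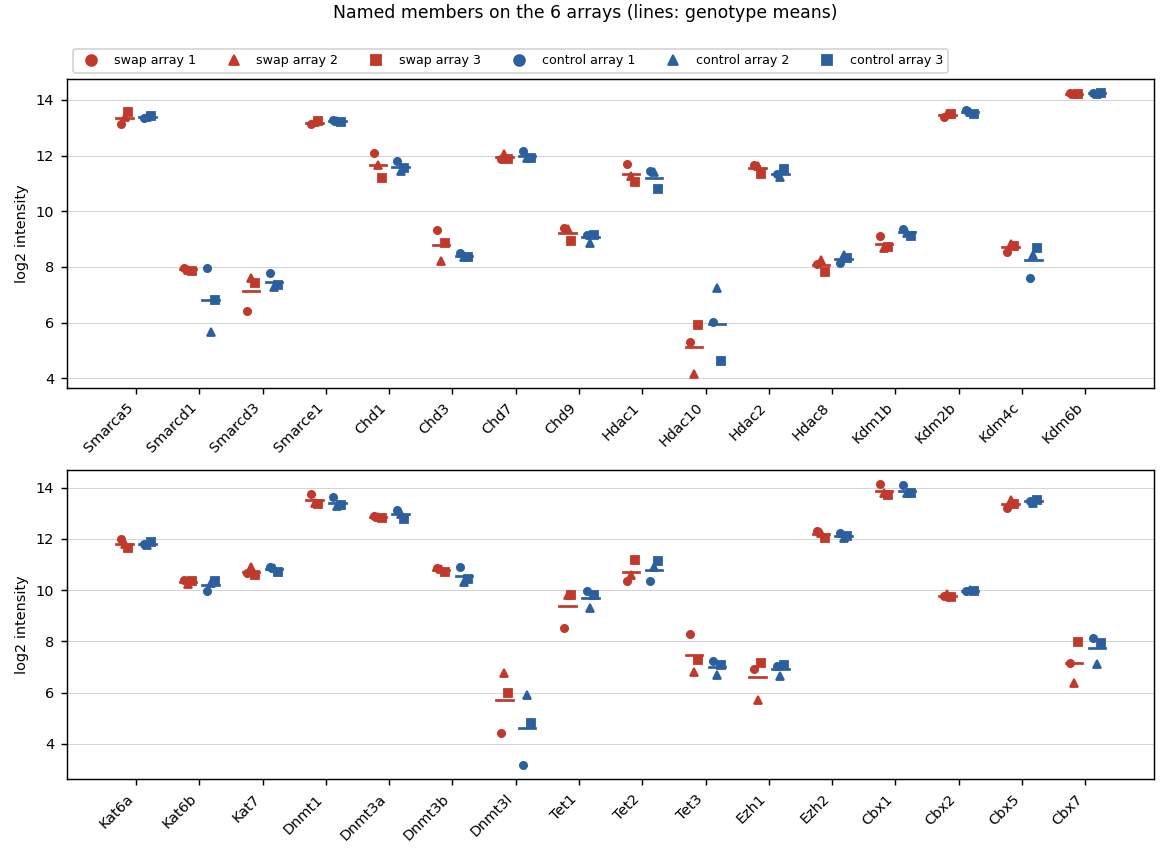
Log2 intensity (y axis) of the 32 named members on each array, swap arrays in red left of control arrays in blue, with symbols for the replicate number and lines for genotype means. Points of the 2 genotypes interleave for most genes; Smarcd1, Hdac10, Dnmt3l and Cbx7 are spread widely within a genotype, and Cbx2 and Kdm1b do not overlap.

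DNA methyltransferases put methyl groups on CpG sites, Dnmt1 copying them after replication and Dnmt3a and Dnmt3b placing new ones. Dnmt1 stood at 13.74, 13.38 and 13.37 in the swap arrays, against 13.64, 13.27 and 13.30 in the control arrays. Array 1 was the highest of each genotype, and the difference was 0.09 (95% interval -0.50 to 0.69). This probe set and the next brightest carry the suffix _x_at. The remaining Dnmt1 set read far lower, averaging 9.42 in the swap and 9.26 in the control arrays, so the level read depends on the probe set. Dnmt3b differed by 0.24 (SE 0.25), its dimmer probe set by -1.15 (SE 0.81), and their mean by -0.46. Dnmt3l, a catalytically inactive partner of the de novo enzymes known from germ cells, lay in the dim range, at 4.43, 6.75 and 5.97 in the swap arrays and 3.16, 5.92 and 4.80 in the control arrays, and its difference of 1.09 had an SE of 0.90.

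Dnmt3a was read by 5 probe sets, all at or above the median level, and all 5 were lower in the swap arrays. Its brightest probe set stood at 12.87, 12.86 and 12.81 in the swap arrays, against 13.13, 12.97 and 12.79 in the control arrays. The groups overlap, and the difference was -0.12 (95% interval -0.64 to 0.41), or -0.03 without control array 1. The other 4 probe sets differed by -0.51, -0.36, -0.33 and -0.21, with limma's adjusted p at 1.00 for each. The 5 sets read the same 6 RNA samples, so they do not replicate the comparison. The Dnmt3a promoter is shown as the window with the most CG sites among those printed here, 46 in 300 bases (RefSeq, GRCm38.p6, chr12:3806730-3807029, plus strand, the first of the windows listed for the gene), with GGGCGG on either strand in capitals.
Dnmt3a: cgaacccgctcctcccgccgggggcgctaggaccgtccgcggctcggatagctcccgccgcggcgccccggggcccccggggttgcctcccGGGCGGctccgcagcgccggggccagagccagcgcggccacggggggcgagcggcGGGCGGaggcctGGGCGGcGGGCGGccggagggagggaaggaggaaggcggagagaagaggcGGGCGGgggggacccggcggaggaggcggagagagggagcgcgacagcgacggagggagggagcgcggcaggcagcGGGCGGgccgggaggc

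The Tet dioxygenases oxidise methylcytosine, the first step of active demethylation. Tet1 stood at 8.53, 9.79 and 9.79 in the swap arrays, against 9.95, 9.29 and 9.80 in the control arrays. Swap array 1 was the lowest, and the difference of -0.31 (SE 0.43) became 0.11 without it. The dimmer Tet1 probe sets differed by 0.40, 0.35 and -0.48, from the brightest to the dimmest. Tet2 stood at 10.35, 10.60 and 11.19 in the swap arrays and 10.34, 10.90 and 11.14 in the control arrays. Array 1 was the lowest of each genotype, and the difference was -0.08 (95% interval -0.94 to 0.78). Its dimmer probe set differed by 0.14. Tet3 differed by 0.46 (SE 0.44), with swap array 1 the highest at 8.29 and the other 5 arrays between 6.68 and 7.28.

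Polycomb repression is written by Ezh1 or Ezh2, which methylate histone H3 lysine 27, and read by the Cbx2, Cbx6, Cbx7 and Cbx8 proteins. Ezh2 stood at 12.30, 12.23 and 12.02 in the swap arrays, against 12.21, 12.03 and 12.09 in the control arrays. The groups overlap, and the difference was 0.08 (95% interval -0.45 to 0.60). Ezh1 lay below the median level and differed by -0.32 (SE 0.43), or 0.12 without swap array 2.

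Cbx2 (M33), a Polycomb protein whose loss in mice shifts the identity of vertebrae, was the second member whose groups did not overlap. It stood at 9.77, 9.84 and 9.71 in the swap arrays, against 9.97, 10.01 and 9.97 in the control arrays. Each swap value was under each control value, and the difference was -0.21 (SE 0.20, 95% interval -0.70 to 0.28, limma adjusted p = 1.00). The SDs of its arrays were smaller, at 0.07 in the swap and 0.02 in the control group. The SE and interval are those of limma, which also draws on the variance of the other probe sets. Under median centring of the arrays neither Cbx2 nor Kdm1b separated the groups, with differences of -0.18 for Cbx2 and -0.37 for Kdm1b. A further Cbx2 probe set, far below the median level, differed by 0.38. Cbx7 differed by -0.56 (SE 0.51) with groups that overlap, and its 2 dimmer probe sets differed by 0.34 and 1.26.

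The heterochromatin proteins Cbx1 and Cbx5, which bind methylated histone H3 lysine 9, differed by 0.10 or less. Cbx1 stood at 14.12, 13.79 and 13.72 in the swap arrays, against 14.09, 13.78 and 13.78 in the control arrays, with array 1 the highest of each genotype and a difference of -0.01. Cbx5 averaged 13.37 ± 0.16 in the swap arrays and 13.47 ± 0.07 in the control arrays (SD, n = 3 each), a difference of -0.10. Of the 7 Cbx genes 2 were higher and 5 lower, with a median of -0.09.

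More than 1 probe set was available for 51 members, and for 14 of these all probe sets of the gene pointed one way. Among the 30 members with 3 or more, 6 did so, Dnmt3a and Dnmt1 among them. Of the 35 members with 2 or more sets above or equal to the median level, 12 had these bright sets in one direction. Over all 175 probe sets of the members, 3 (1.71%) had an unadjusted limma p under 0.05, against 4.57% of all probe sets, and 0 were called. These shares were not matched for level, and 128 of the 175 sets lay at or above the median level. The 3 sets with such a p were the dimmer sets of Chd1, Kat6b and Smarcd1 given above. Groups also did not overlap in dimmer sets of Chd1 (0.91), Chd4 (0.20), Kat5 (0.36) and Kat6b (0.98), with the swap arrays higher. In a dimmer set of Chd6 (-0.45) they did not overlap with the swap arrays lower.

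**Figure D4:**
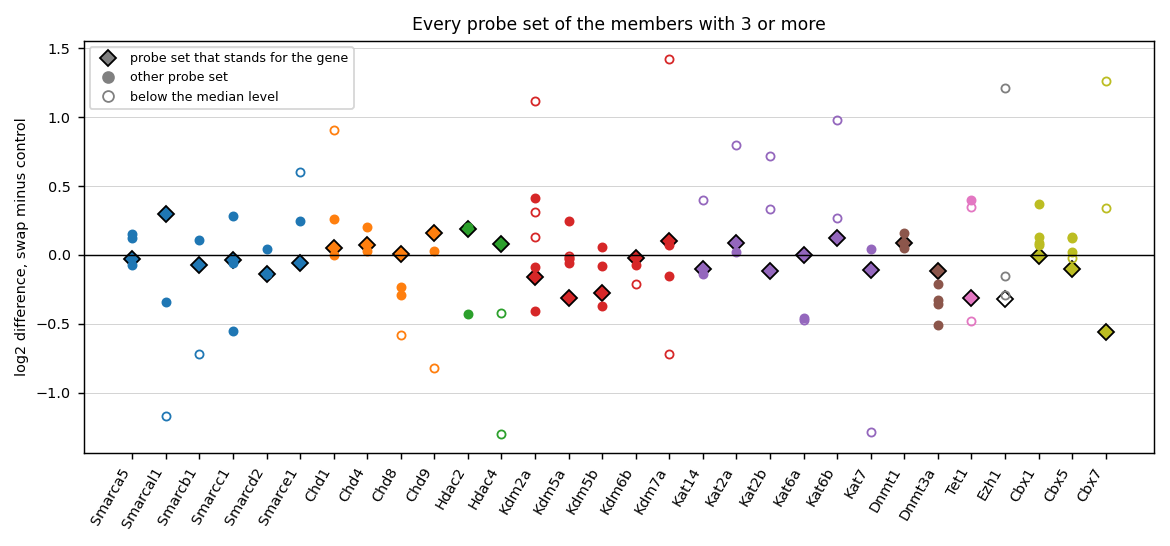
Log2 difference (swap minus control, y axis) of every probe set of the 30 members with 3 or more, the set that stands for the gene as a diamond, other sets as circles and open symbols for sets below the median level. Most large differences belong to open symbols, and the 5 sets of Dnmt3a all lie below 0.

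Variation between arrays of one genotype was ordered by replicate number more visibly than by genotype in part of the members. In 15 of 72 members (20.8%) swap array 1 and control array 1 both lay above the other 4 arrays, against 10.1% of all genes and 13.4% of genes at or above the median level. In 7 members (9.72%) both lay below the other 4, against 11.8% and 12% of those genes. Of the 131 measured partner genes described below, 17.6% had both above and 7.63% both below, so the pattern is not particular to the members. The 15 were Cbx1, Chd1, Dnmt1, Dnmt3b, Hdac1, Hdac3, Kat2a, Kat8, Kdm1a, Kdm3a, Kdm4d, Smarca2, Smarcal1, Smarcd1 and Smarcd2. The 7 were Chd6, Dnmt3l, Kat2b, Kdm5b, Smarca5, Smarcc1 and Tet2. These members were picked out after their values were seen.

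Kdm3a, a demethylase of histone H3 lysine 9, is an example, at 11.91, 11.56 and 11.24 in the swap arrays and 12.05, 11.34 and 11.25 in the control arrays. The median deviation of the members from their own means was 0.11, -0.02 and -0.02 in swap arrays 1, 2 and 3 and 0.09, -0.04 and 0.03 in control arrays 1, 2 and 3. Over all genes it lay between -0.01 and 0.04 on every array. Across the 67 brighter members, the deviations of swap array 1 and control array 1 from their genotype means correlated at r = 0.225, against -0.0169 for array 2 and 0.166 for array 3. Over the 11168 genes at or above the median level these r were 0.255, 0.0359 and 0.207, and genes are not independent replicates.

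Values of some genes in other lists moved with array 1 as well. Of 9 measured proliferation markers 4 lay above the other arrays in both array 1 samples and 0 below. The list summed to 37083, 38052 and 31744 units in swap arrays 1, 2 and 3 and to 40605, 32055 and 30649 in the control arrays. Of 10 neuron markers 4 lay below in both, and of 9 mesenchyme markers 5. The neuron list as a whole did not move one way with array 1. It summed to 62877, 53694 and 62518 units in swap arrays 1, 2 and 3 and to 46695, 61172 and 56745 in the control arrays. The erythroid sum was 15368 units in swap array 1 and 20569 in control array 1, and 27744 to 33238 in the other 4 arrays. For Actb, whose 3′ and 5′ control sets show RNA quality, the log2 difference of 3′ over 5′ signal was 2.92, 2.51 and 2.45 in the swap arrays and 2.67, 2.57 and 2.41 in the control arrays. The same quantity for Gapdh was 1.93, 1.23 and 1.35 in the swap arrays and 1.35, 1.41 and 1.28 in the control arrays, so it set apart swap array 1 but not control array 1. The part of these in the members' pattern was not tested. Without both array 1 samples limma again called 0 members, with a median difference of -0.02.

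**Figure D5:**
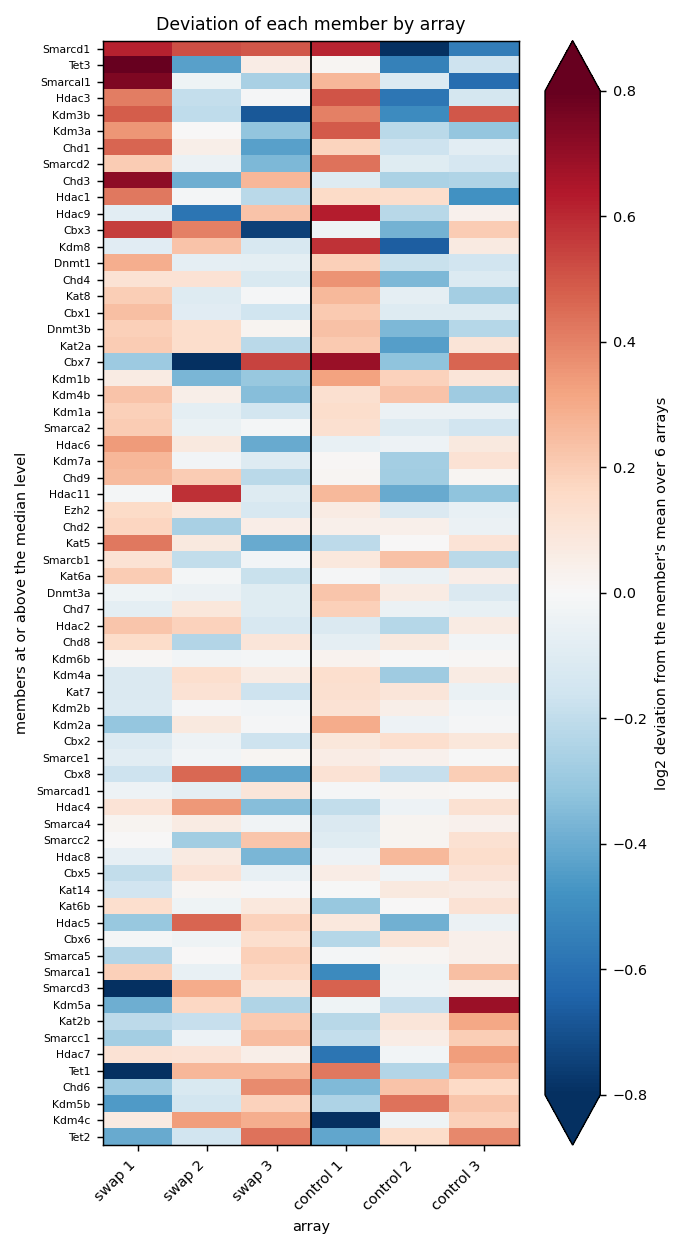
Deviation of each of the 67 members at or above the median level from its own mean over 6 arrays (colour, log2), one row per member and one column per array, swap arrays left of control arrays. Rows are sorted by the sum of the deviations in swap array 1 and control array 1, so these columns run from red to blue by construction, while no block of rows separates the 3 swap from the 3 control columns.

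Partner genes that work in the same complexes were read from a fixed list, of which 131 of 139 genes were measured. limma called 0 of them, 77 differences were positive and 54 negative, and their median was 0.03. The interval lay within 2-fold for 102 of the 131. At an unadjusted limma p under 0.05 there was 1 gene, Setd2, the methyltransferase of histone H3 lysine 36. It stood at 9.76, 9.78 and 9.57 in the swap arrays, against 9.01, 9.03 and 9.34 in the control arrays, with groups that do not overlap and a difference of 0.57 (SE 0.22, limma adjusted p = 1.00). The swap arrays also lay above the control arrays without overlap for Setdb1 (0.40), Trrap (0.52) and Phc1 (0.35), and below them for Gadd45b (-0.47). Including Setd2, these are 5 of 131 partner genes (3.82%), against 8.85% of all genes. Among genes at or above the median level, where 96.2% of the partner genes lay, the share was 8.19%. The 1 gene at an unadjusted limma p under 0.05 stands against 3.63% of all genes. At or above the median level 141 of 11168 genes passed that limit. Setdb1 methylates histone H3 lysine 9, Trrap is a scaffold of acetyltransferase complexes and Phc1 a subunit of Polycomb complex 1.

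Some of the BAF partners that are exchanged between progenitors and neurons are given here beside the Smarc genes. Actl6a and Phf10 belong to the progenitor form and Actl6b, Dpf1 and Dpf3 to the neuronal form. Actl6a stood at 12.38, 11.56 and 11.48 in the swap arrays, against 12.34, 11.43 and 11.41 in the control arrays, high in array 1 of each genotype, with a difference of 0.08. Phf10 differed by -0.02 (95% interval -0.60 to 0.56). Ss18 and Ss18l1, from the same list and above the median level, differed by 0.08 (95% interval -0.45 to 0.61) and 0.04 (-0.68 to 0.76). Actl6b, Dpf1 and Dpf3 lay below the median level, with differences of 0.14 (SE 1.38), -1.01 (SE 0.79) and 1.23 (SE 0.83), so their intervals cannot exclude changes of several fold. Of the 18 BAF partners 14 were higher and 4 lower, with a median of 0.07.

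The smallest p of the other partner lists belonged to the NuRD subunit Mta1 (0.27, SE 0.25), the ATPase Ruvbl1 (0.38, SE 0.32) and the Polycomb-like protein Phf1 (-0.21, SE 0.28). They further belonged to Ing4 (-0.76, SE 0.36), a reader in acetyltransferase complexes, and the deacetylase Sirt2 (-0.43, SE 0.32). None of these passed limma's test.

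Promoter features, which the rule did not use, were counted in the members and in other genes. The sets compared were not matched for level, and 93.1% of the 72 members against 61.4% of all genes lay at or above the median level. RefSeq promoter windows of 300 bases were matched for 57 of the 72 genes, taking the first window listed for a gene. Their median count of CG dinucleotides was 23, against 17 in 14368 measured genes with a window, and 6 of 57 members had fewer than 8, against 27.9% of those genes. The GC box, searched as GGGCGG on both strands, was present in 75.4% of the members, 54.1% of measured genes and 35.9% of all 27025 genes with a window. TATAAA on either strand was present in 5.26%, 9.86% and 14.2% of the same 3 sets.

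Since the genotypes differ in a Hox protein, the letters TGATNNAT, a form of the site bound jointly by Hox and Pbx proteins, were searched on both strands. They occurred in 1 of 57 member windows (1.75%), against 5.46% of measured genes and 9.04% of all genes. The Meis letters TGACAG occurred in 14% of member windows and 17.7% of measured genes. The window with TGATNNAT belonged to Kdm5b, a demethylase of histone H3 lysine 4, which holds 2 overlapping matches, TGATTGAT and then TGATGGAT. The form TGATTGAT is held by 0.515% of measured genes. The first match begins at position -226 from the annotated start (RefSeq, GRCm38.p6, chr1:134559928-134560227, plus strand), and both are in capitals.
Kdm5b: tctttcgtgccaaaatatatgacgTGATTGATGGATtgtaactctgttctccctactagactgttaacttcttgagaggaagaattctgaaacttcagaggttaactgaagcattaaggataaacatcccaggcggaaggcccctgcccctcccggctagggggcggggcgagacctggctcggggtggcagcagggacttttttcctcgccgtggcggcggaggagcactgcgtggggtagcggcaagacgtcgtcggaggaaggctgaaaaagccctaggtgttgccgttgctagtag

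Kdm5b stood at 11.13, 11.44 and 11.77 in the swap arrays, against 11.34, 12.02 and 11.81 in the control arrays. The groups overlap, array 1 is the lowest of each genotype, and the difference was -0.28 (SE 0.30, 95% interval -1.02 to 0.46). A match of letters is a description of the window and not a bound site.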

How the data were processed

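The authors deposited a table of linear intensities with 45101 probe sets for each of the 6 Affymetrix mouse arrays. Per the submitters' processing notes the affy package was used; which version and summary method is not given in the sources used here. Each array's values share a 2% trimmed mean of 500 intensity units, as found from the deposited table. After 64 control probe sets were set aside, log2 was taken with no offset, and limma 3.58.1 (lmFit and eBayes, R 4.3.3) was fitted to the other 45037, with Benjamini-Hochberg adjustment over them and a threshold of 0.05. Names came from the platform table (34945 probe sets with 1 symbol, 932 with several, 9160 with none, the last 2 kinds unnamed). The script was tested on simulated data.

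Members and lists were chosen with earlier results of these data known. Named members were, per family, those with arrays that do not overlap, the 2 smallest p and the 2 highest means, whole families of 5 or fewer, and genes whose probe sets disagree with 1 at an unadjusted p under 0.05. From each partner list the gene with the smallest p was taken. Alternatives covered normalization, offset, filter, prior, weights, block, probe sets and left-out arrays. The main fit did not pair arrays by replicate number, since the series design names independent biological replicates and states no pairing. The deviations of same-numbered arrays correlated at 0.0652, 0.0182 and 0.0573 over all probe sets. Over those at or above the median level they correlated at 0.234, 0.0313 and 0.224. These values do not show that same-numbered arrays are unrelated, and the replicate number was tried as a block among the alternatives. No scan dates were used here, so no batch was tested.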

Additional observations from a re-analysis of the deposited data

How the results depend on the processing

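limma called 0 of the members under 18 alternatives, with a smallest adjusted p of 0.772 (without control array 1), and 0 of the partner genes under 17, with a smallest adjusted p of 0.944. With the replicate number as a block, 0 members were called and the median difference was 0.00, and the block changed no other call. The members' median lay between -0.03 and 0.05 over the alternatives. With the mean of all probe sets of a gene, the median was -0.10 for the Dnmt family and 0.13 for the Cbx family, against 0.17 and -0.09 with the brightest set. The medians of the Hdac (-0.01), Tet (0.03) and Ezh (0.09) families also turned sign under that mean, from 0.13, -0.08 and -0.12. The Cbx median lay between -0.16 and 0.00 when 1 array was left out, and was -0.03 without both array 1 samples. Members whose arrays did not overlap numbered 1 (Kdm4c) under median centring, where Kdm1b and Cbx2 were lost, and 4 (Chd1, Chd6, Hdac4 and Kdm1b) with the mean of probe sets, and the cause was not tested. Of 540 values of the 32 named members, 494 kept direction and call, 46 in 20 members turned sign while uncalled, and 0 became called. Leaving out probe sets with the suffixes _x_at and _s_at was chosen after seeing the data. With 3 arrays a genotype, an exact permutation test cannot go below a two-sided p of 0.1, and members below the median level have intervals too wide to bound a 2-fold change, except 1 of 5.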
